A study of Equus caballus with 10 samples.

Results

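The 10 genes described here serve the local activation of glucocorticoids and the response to them, and they were chosen by symbol: HSD11B1, HSD11B2, NR3C1, NR3C2, FKBP5, TSC22D3, PER1, NR4A1, NR4A2 and NR4A3. All 10 were found among the 29196 genes of the deposited table, and all 10 were among the 17992 genes that could be tested. RNA was sequenced from passaged primary tenocytes of 5 adult horses, with 1 library per donor in each of 2 groups. In the first group, called inhibitor alone, the IRAK4 inhibitor PF-06650833 was given daily at 100 nM for 14 days to tenocytes in 3D collagen gels, several of which were pooled per library. In the second group, called IL-1β plus inhibitor, the same donors' cells received the inhibitor in the same way and also IL-1β at 17 ng/ml every 3 to 4 days. The inhibitor was therefore present in every library, and tenocytes without it were not analysed here. The medium held fetal bovine serum, which carries steroids of its own, and the labels name no glucocorticoid among the additions.

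Glucocorticoids such as cortisol pass into cells and act by way of receptors that move to the nucleus and switch genes on or off. How much active hormone a cell sees depends in part on a pair of enzymes, 1 of which makes the active steroid from its inert form while the other does the reverse. In connective tissue the pathway is known for its restraint of inflammation, and inflammatory cytokines are known in turn to alter the enzymes.

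Values are log2 expression as deposited, read here as variance-stabilized. On this scale a gene without reads has the value 3.43, and differences of weakly expressed genes are compressed. Normalized counts given beside them were recovered by inverting that scale. Genes were tested with limma and called differentially expressed where the adjusted p was below 0.05 and expression differed by 1 log2 unit or more. By this rule 6.68% of all tested genes were called, 3.11% higher and 3.57% lower with IL-1β plus inhibitor. Normalized counts, which are already scaled for depth, summed to between 34358354 and 38755204 per library. Of the tenocyte markers, SCX, MKX, COL1A1 and COL1A2 were found in every library, whereas TNMD, the gene of tenomodulin, was at the value of no reads in all 10. Of 8 tested tenocyte markers, 3 were lower with IL-1β plus inhibitor, the transcription factor genes SCX and MKX and the matrix gene COMP, and each of them fell in 5 of 5 donors. With the donor as a block 5 were lower, since the collagen genes COL1A1 (log2 fold change -1.38, adjusted p = 0.0147 with the block and 0.0682 without, from limma) and COL1A2 (-1.28, adjusted p = 0.0169 and 0.0614) were added. DCN, the gene of the matrix protein decorin, was higher in 5 of 5 donors without a call (log2 fold change 1.01, adjusted p = 0.268, or 0.0529 with the block, from limma). In bulk RNA of this kind, fewer cells of a type and less RNA per cell cannot be told apart.

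Between inhibitor alone and IL-1β plus inhibitor, 3 of the 10 genes were differentially expressed. HSD11B1, which encodes the enzyme that regenerates active glucocorticoid, rose with a log2 fold change of 2.69. TSC22D3, which encodes the glucocorticoid-induced leucine zipper protein GILZ, fell by 1.16 on the log2 scale. NR4A3, an orphan nuclear receptor gene, rose by 1.30. With the donor as a block, 4 of the 10 genes were called, since NR4A2 was added, and 8.26% of all tested genes were called in that fit. Without a minimum fold change 3 of the 10 passed, against 15.5% of all tested genes. The groups did not overlap for 3 of the 10 genes, HSD11B1, TSC22D3 and NR4A2, and for 12.7% of all tested genes. In 6 of the 10 genes every donor differed in the same direction, 5 upward and 1 downward, as did 32.7% of all tested genes. The 10 genes had a median log2 fold change of 0.24, against -0.01 for all tested genes.

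**Figure D1:**
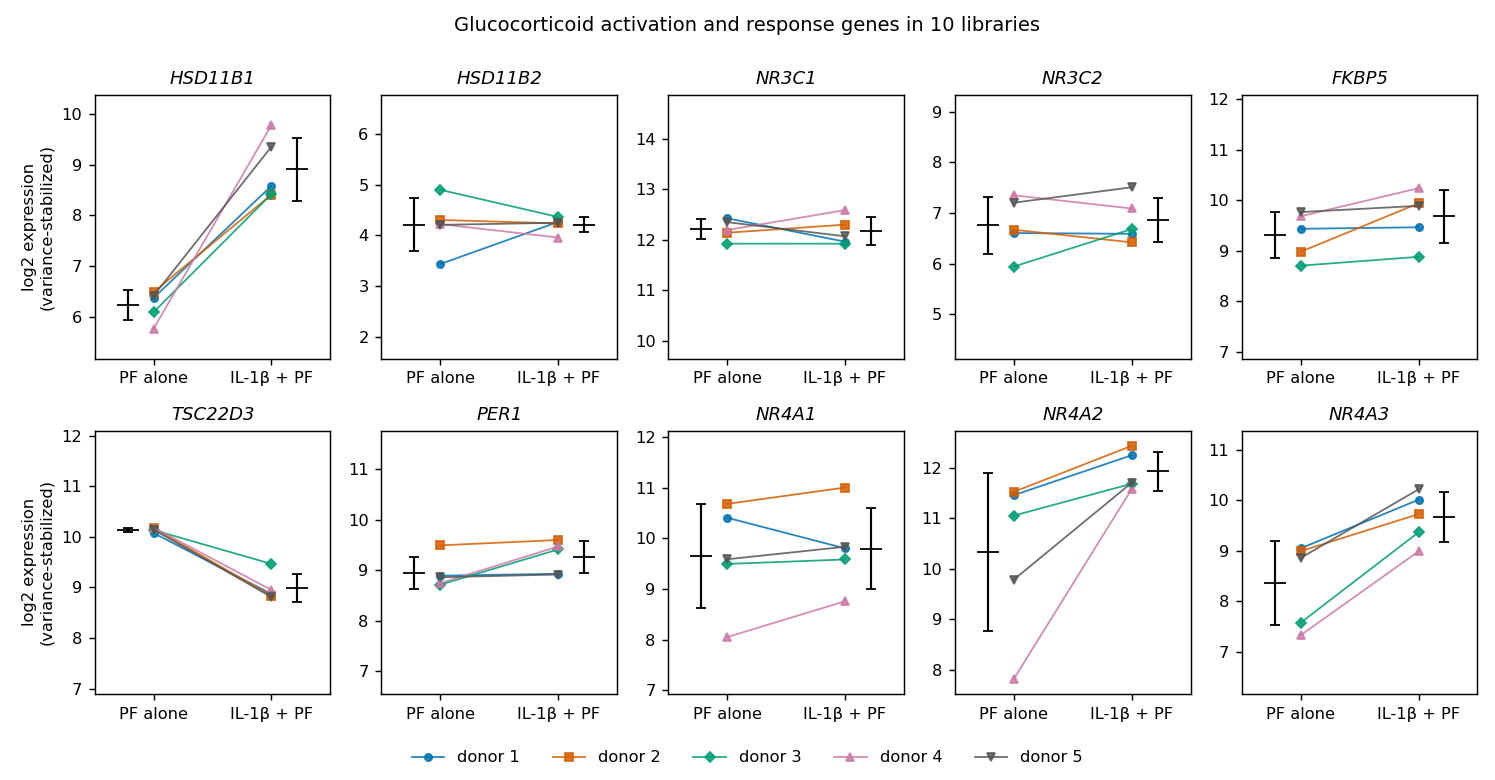
Variance-stabilized log2 expression of the 10 genes in each library, with inhibitor alone (PF alone) and with IL-1β plus inhibitor (IL-1β + PF). Coloured symbols joined by lines are the 5 donors, black bars are the mean and SD (n = 5), and every panel spans the same number of log2 units. HSD11B1 climbed and TSC22D3 dropped in all 5 donors, NR3C1 stayed between 11.92 and 12.59, and NR4A2 started from widely spread values with inhibitor alone.

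HSD11B1 encodes 11β-hydroxysteroid dehydrogenase type 1, which turns inert cortisone into active cortisol in the endoplasmic reticulum. With inhibitor alone its log2 expression was 6.37, 6.48, 6.09, 5.76 and 6.41 in donors 1 to 5. With IL-1β plus inhibitor it was 8.58, 8.41, 8.42, 9.78 and 9.36 in the same donors. Every library with IL-1β lay above every library without it, and donor 4 was the lowest of the first group and the highest of the second. The mean moved from 6.22 ± 0.30 (SD, n = 5) to 8.91 ± 0.62 (SD, n = 5), or 2.69 ± 0.29 (SE) as a log2 fold change (adjusted p = 0.000319 from limma). In normalized counts this was a mean of 55.9 against 499.7, 8.94 times as many. Within donors the log2 difference ranged from 1.93 in donor 2 to 4.02 in donor 4. Only 1.14% of tested genes had a larger absolute log2 fold change. HSD11B1 was also called with the donor block (adjusted p = 0.00118 from limma).

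HSD11B2 encodes the type 2 enzyme, which inactivates cortisol and is best known from the kidney. It was barely detected, with 0 normalized counts in donor 1 and between 3.19 and 12.2 in the other donors with inhibitor alone. With IL-1β plus inhibitor it had 1.44 to 4.64 normalized counts. A difference was not detectable at this depth (log2 fold change 0.00, 95% confidence interval -0.52 to 0.52, adjusted p = 0.998 from limma), and 3 of 5 donors were lower. This interval is on the compressed scale and does not bound the change in counts. Its SE was 0.24, against 0.61 on the log2 scale of normalized counts plus 1. The sign of so small a log2 fold change was reversed when single libraries were left out.

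H6PD, which makes the NADPH that the HSD11B1 enzyme uses, was measured as part of a list of steroid synthesis, activation, clearance and transport. Of the 14 genes of that list that were tested, 1 was called, or 7.14% against 6.68% of all tested genes. It was STS, which rose with IL-1β plus inhibitor and encodes steroid sulfatase, an enzyme that frees steroids from their sulfate esters. STS was between 7.06 and 7.42 with inhibitor alone and from 7.77 to 9.32 once IL-1β was added on the log2 scale (log2 fold change 1.34 ± 0.25 SE, adjusted p = 0.00475 from limma). SRD5A1, the gene of a 5α-reductase that inactivates glucocorticoids, had a log2 fold change of 1.28 and was called with the donor block but not without it (adjusted p = 0.0110 and 0.0659 from limma). Without the block it was also called with array weights, without the IL-1β library of donor 3 or of donor 4, and without both libraries of donor 4 (adjusted p from 0.0130 to 0.0373). H6PD itself had a log2 fold change of -0.62 (adjusted p = 0.0371 from limma), below the minimum fold change. SRD5A1 and H6PD were picked out after their values were seen. Among the best expressed genes of the list, TSPO, the gene of a mitochondrial protein linked to cholesterol transport, had a log2 fold change of 0.48 (adjusted p = 0.283 from limma). Of the list, 5 genes were at the value of no reads in all 10 libraries. Among them was CYP11A1, whose enzyme begins steroid synthesis from cholesterol.

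Markers of other cell types were looked at beside these values. ADIPOQ, the gene of the fat cell hormone adiponectin, had a mean of 83.8 normalized counts with inhibitor alone and 1061 with IL-1β plus inhibitor. It was called (log2 fold change 3.11, adjusted p = 0.00543 from limma) and was higher in 5 of 5 donors. The 4 adipocyte markers in the table summed to between 20.3 and 167.3 normalized counts per library with inhibitor alone and to 361.6 to 2326 once IL-1β was added. Beside ADIPOQ, PLIN1 had a mean of at most 5.52 normalized counts in either group, CIDEC was detected in 2 libraries, and LEP was at the value of no reads in all 10. Of the 12 leukocyte markers, 4 could be tested and 1 was higher, CD68 (log2 fold change 1.70, adjusted p = 0.00795 from limma). LAPTM5, another of the 4, was lower in 5 of 5 donors (log2 fold change -1.67) and was called with the donor block but not without it (adjusted p = 0.0255 and 0.0957 from limma). PTPRC, the common leukocyte antigen gene, had reads in 1 library, and CD3E, CD3D, MS4A1 and AIF1 had none in any. CD14, also tested, had reads in 6 libraries and was not called (log2 fold change 2.66, adjusted p = 0.340, or 0.106 with the block, from limma). Its mean was 394.1 normalized counts with inhibitor alone and 802.0 with IL-1β plus inhibitor, with 4 donors higher and 0 lower. Summed leukocyte markers ranged from 82.5 to 1837 and from 179.3 to 1944 normalized counts in the same order of groups. Within donors this sum was higher with IL-1β plus inhibitor in 5 of 5. By group means most of it was CD14 and CD68, the latter at 80.8 and then 347.1 normalized counts. LAPTM5 went the other way, with means of 96.1 and then 14.5. Summed epithelial markers ranged from 537.7 to 1574 and from 45.4 to 442.2, with EPCAM and KRT5 at no reads. Nearly all of this sum was CDH1, which was lower with IL-1β plus inhibitor, at means of 784.9 and then 182.2 normalized counts. KRT18 had means of 3.24 and 0.69, and KRT14 of 1.09 and 0. Of 7 mural and muscle markers 2 were lower, DES and RGS5, and with the donor block 3, with ACTA2 added (log2 fold change -1.01, adjusted p = 0.0334 with the block and 0.227 without, from limma). Of 6 tested endothelial markers 0 were called by limma with or without the block, and 2 had an unadjusted p below 0.05. Over all tested genes 3.57% were called lower and 6.68% in either direction. The part of any of these in the change of HSD11B1 or of the genes described next was not tested.

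NR3C1 encodes the glucocorticoid receptor. Its log2 expression was 12.42, 12.14, 11.92, 12.19 and 12.35 in donors 1 to 5 with inhibitor alone, and 11.96, 12.30, 11.92, 12.59 and 12.07 with IL-1β plus inhibitor. The groups covered nearly the same range, 2 donors were higher and 3 lower. No difference was detected, with a log2 fold change of -0.04 (95% confidence interval -0.35 to 0.28, adjusted p = 0.894 from limma). The interval lay within the minimum fold change in both directions. Of all tested genes, 91.4% had a larger absolute log2 fold change.

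NR3C2 encodes the mineralocorticoid receptor, which binds cortisol as well as aldosterone. It lay between 5.94 and 7.35 on the log2 scale with inhibitor alone and from 6.42 to 7.51 once IL-1β was added, and the groups overlapped. Its log2 fold change was 0.10 (95% confidence interval -0.56 to 0.77, adjusted p = 0.863 from limma). Donors 4 and 5 had the highest values in each group. Of the squared deviations from the group means, 82.2% lay between donors, where a large part does so even if donors do not differ.

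The unliganded receptor is held by a chaperone machine, and the active receptor works through coregulators. Of 20 tested genes for receptor chaperones and coregulators, 0 were called in either direction by limma, with and without the donor block, against 6.68% of all tested genes without it. At an unadjusted p below 0.05 there were 5 of the 20, and 3 of the 20 passed after adjustment but not the minimum fold change, against 15.5% of all tested genes at that adjusted p. Of these, SMARCA4, a chromatin remodelling ATPase, had a log2 fold change of 0.47 and FKBP4, a receptor cochaperone, also of 0.47, and both were named after their values were seen. The best expressed members were HSP90AA1 (log2 fold change 0.15), HSP90AB1 (0.19) and HSPA8 (0.29), the genes of the HSP90 and HSC70 chaperones, each higher in 4 of 5 donors, with adjusted p-values from 0.321 to 0.525 from limma. The median log2 fold change of the list was -0.02.

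**Figure D2:**
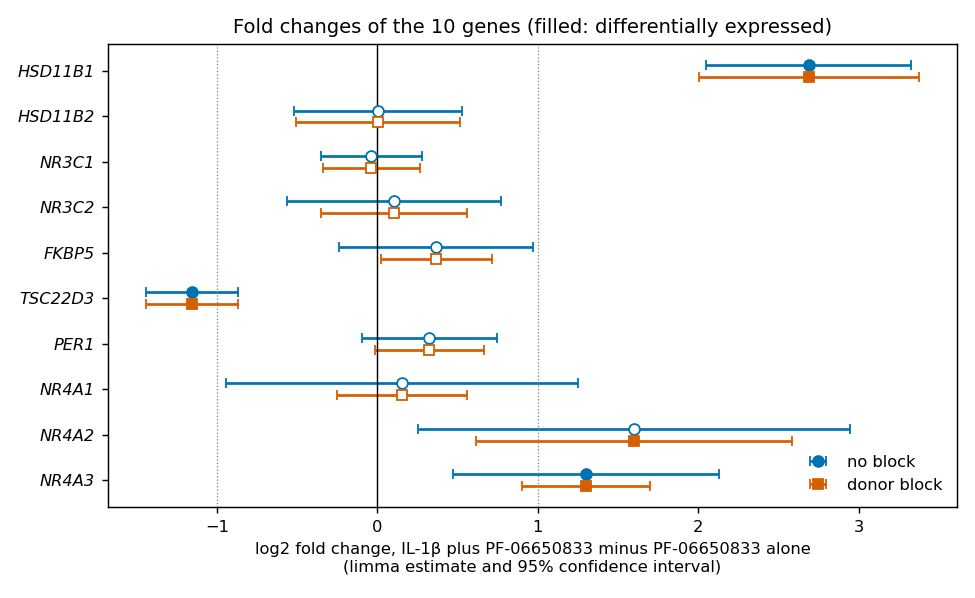
Log2 fold change of each of the 10 genes, IL-1β plus inhibitor minus inhibitor alone, as estimated by limma with its 95% confidence interval (n = 5 donors per group). Blue circles are the fit without and orange squares the fit with the donor as a block, filled where the gene was called, and dotted lines mark the minimum fold change of 1. The blocked intervals of the NR4A genes are narrower, and NR4A2 is filled only there.

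FKBP5 encodes FKBP51, a cochaperone that is induced by the receptor and lowers its hormone binding. Its log2 expression was 9.43, 8.98, 8.71, 9.68 and 9.76 with inhibitor alone and 9.46, 9.94, 8.88, 10.24 and 9.89 with IL-1β plus inhibitor. All 5 donors were higher, by 0.03 in donor 1 to 0.96 in donor 2, but the groups overlapped. The log2 fold change of 0.37 did not pass (95% confidence interval -0.24 to 0.97, adjusted p = 0.415 from limma). With the donor block the interval was 0.02 to 0.72, above 0, and the adjusted p was 0.120 from limma.

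TSC22D3 encodes GILZ, a receptor target that binds and restrains NF-κB and AP-1. With inhibitor alone it was at 10.07, 10.17, 10.13, 10.18 and 10.14, the narrowest spread of the 10 genes in either group, with an SD of 0.04 against a median SD of 0.27 over all tested genes. With IL-1β plus inhibitor it was at 8.87, 8.83, 9.46, 8.95 and 8.81. All 5 libraries with IL-1β lay below all 5 without it. Mean normalized counts were 1108 and 493.3, which is 0.445 times the level with inhibitor alone. As a log2 fold change this was -1.16 ± 0.13 (SE, adjusted p = 0.000386 from limma). Donor 3 fell least, by 0.67, and stood apart from the other 4 donors, which fell by up to 1.34. Without its library with IL-1β the log2 fold change was -1.28.

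PER1 encodes a repressor of the circadian clock and is also induced by glucocorticoids within hours. It was between 8.71 and 9.49 with inhibitor alone and from 8.91 to 9.60 once IL-1β was added. All 5 donors were higher, donors 3 and 4 by 0.70 and 0.73, and donors 1, 2 and 5 by at most 0.11. The log2 fold change of 0.32 did not pass (95% confidence interval -0.10 to 0.74, adjusted p = 0.289 from limma).

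Of 24 further glucocorticoid-induced genes, 22 were tested and 11 were called, 7 higher and 4 lower with IL-1β plus inhibitor. This is 50% of the list against 6.68% of all tested genes, while the list's median log2 fold change was -0.03. Without both libraries of donor 5, 7 of the 22 were called in the fit without the donor block. Blocked fits that left out a donor called 10 to 12. The list was written with earlier results of these data known, and many of its genes are known to answer to other signals too, so its share is given as a description. Among the genes that rose, CEBPB, which encodes a transcription factor of the acute inflammatory response, lay between 12.67 and 13.26 with inhibitor alone and from 13.92 to 14.48 once IL-1β was added (means 12.84 and 14.33, adjusted p = 0.000186 from limma). GLUL, the gene of glutamine synthetase, had a log2 fold change of 1.79. PDK4, the gene of a kinase that slows glucose oxidation, had a log2 fold change of 2.76, from a mean of 26.5 normalized counts to 323.3.

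The genes of the list that fell included TXNIP, which encodes a thioredoxin-binding protein, from between 12.01 and 12.65 to between 9.98 and 11.41 (log2 fold change -1.73). LCN2, the gene of lipocalin 2, fell by 1.59 on the log2 scale. For GLUL, PDK4, TXNIP and LCN2 the adjusted p lay between 0.00218 and 0.00439 from limma, the donors all moved the same way and the groups did not overlap.

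A further 5 of the list were called and fall outside the rule by which genes were named, so they were chosen after their values were seen. ZBTB16, which encodes a zinc finger repressor strongly induced by glucocorticoids in many cells, was at 7.10, 9.25, 6.85, 9.45 and 8.84 with inhibitor alone and at 4.40, 5.20, 6.30, 6.98 and 4.95 with IL-1β plus inhibitor. The groups of ZBTB16 overlapped slightly, but all 5 donors were lower (log2 fold change -2.73 ± 0.63 SE, adjusted p = 0.0144 from limma). KLF15, a transcription factor gene, had a log2 fold change of 1.69 (adjusted p = 0.00523 from limma). ANGPTL4, the gene of a lipoprotein lipase inhibitor, went from a mean of 12.10 to 13.60 (adjusted p = 0.0353 from limma), and RGS2, the gene of a regulator of G protein signalling, from 7.57 to 9.37 (adjusted p = 0.0456 from limma). The groups of ANGPTL4 and RGS2 overlapped. TAT, the gene of tyrosine aminotransferase, had no reads in the 5 libraries with inhibitor alone and 7.47 to 92.2 normalized counts with IL-1β plus inhibitor. Its mean was at least 11.4-fold higher, taken against a limit of 3 counts in each library.

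Some of these calls changed when libraries were left out of the fit without the donor block. That of ZBTB16 was lost without both libraries of donor 2 or of donor 5 (adjusted p = 0.0827 and 0.0818 from limma). ANGPTL4 lost its call in 9 of 15 fits without a library or donor, those without the inhibitor-alone library of donor 1, 4 or 5, the IL-1β library of donor 1, 2, 3 or 5, or both of donor 1 or 5 (adjusted p up to 0.157). RGS2 lost it in 11 of 15, which left the call standing without the inhibitor-alone library of donor 1 or 3, the IL-1β library of donor 4, or both of donor 4 (adjusted p up to 0.182, all from limma). With all libraries RGS2 also lost its call when all genes that are not constant were tested, on the log2 scale of normalized counts plus 1 or plus 0.5, and without the mean-variance trend (adjusted p from 0.0505 to 0.0573 from limma). With the donor block ZBTB16, RGS2 and ANGPTL4 were called (adjusted p = 0.00645, 0.00747 and 0.00223 from limma). Each of them was also called in 5 of 5 blocked fits that left out a donor.

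Other well expressed targets gave no call. ANXA1, which encodes the anti-inflammatory protein annexin A1, was lower in 5 of 5 donors with groups that did not overlap, but its log2 fold change of -0.49 was below the minimum (adjusted p = 0.0301 from limma). CEBPD, a partner of CEBPB, had a log2 fold change of -0.00 (adjusted p = 0.994 from limma). CRISPLD2, the gene of a secreted protein that binds endotoxin, had a log2 fold change of -0.73 and ranged from 10.65 to 14.09 between donors with IL-1β plus inhibitor.

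**Figure D3:**
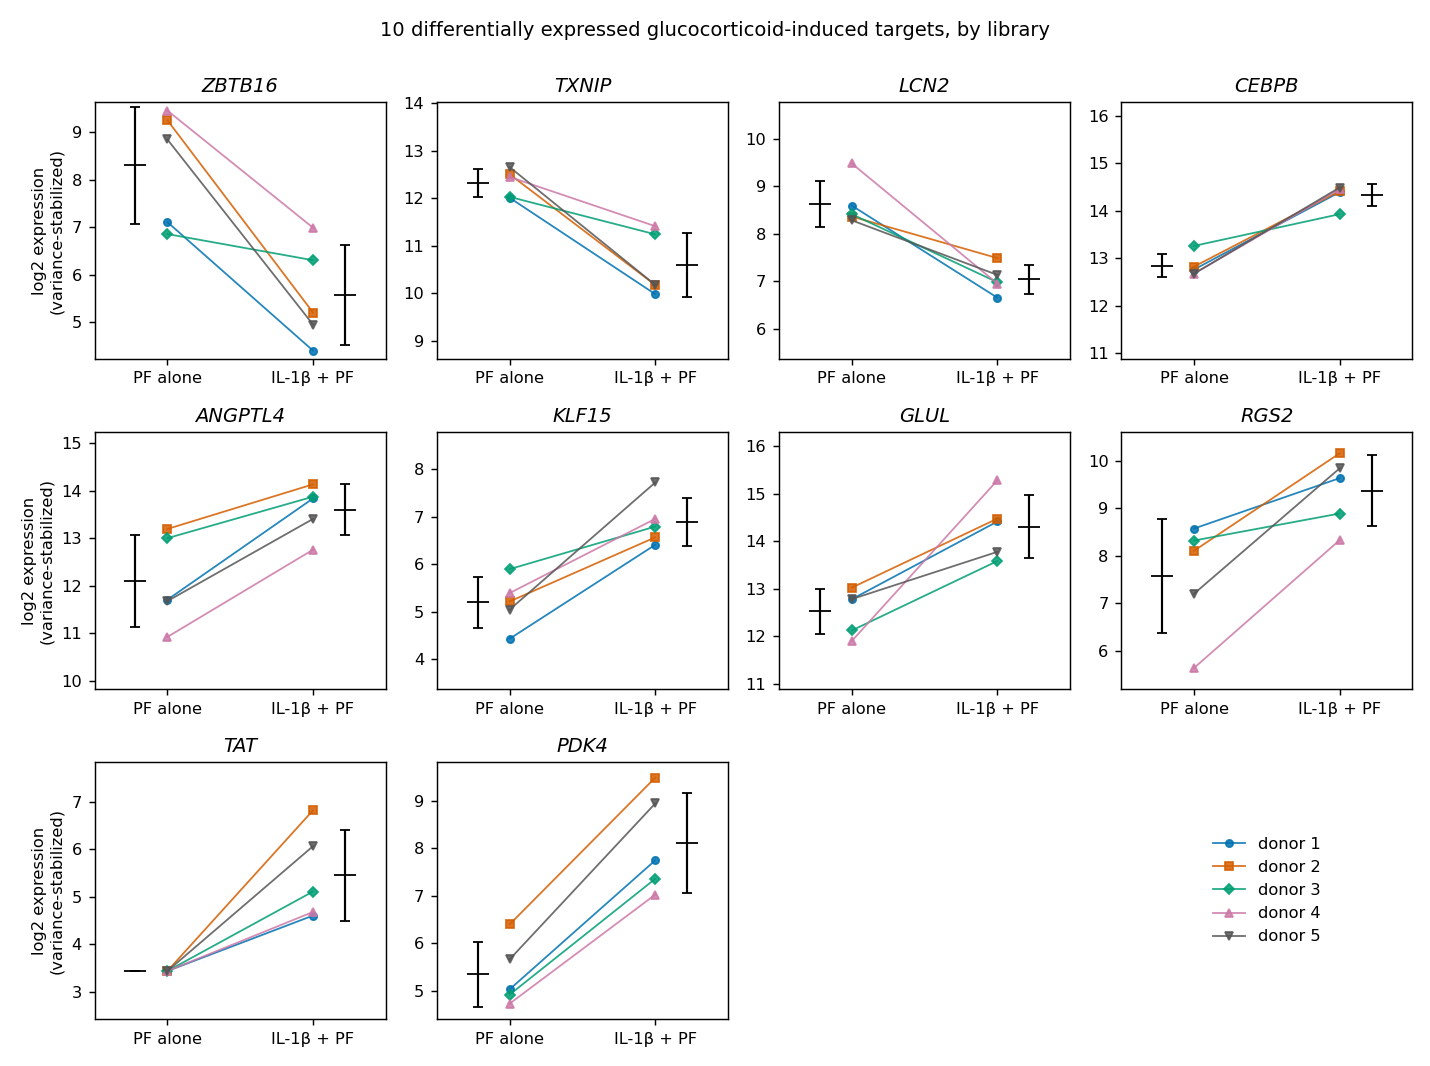
Variance-stabilized log2 expression of 10 of the 11 glucocorticoid-induced targets that were differentially expressed, by library, ordered by log2 fold change. Symbols joined by lines are the 5 donors and black bars the mean and SD (n = 5) with inhibitor alone (PF alone) and IL-1β plus inhibitor (IL-1β + PF). The 3 genes from ZBTB16 to LCN2 went down and the 7 from CEBPB to PDK4 went up in all 5 donors, and TAT started from no reads.

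PER1 belongs to the clock, so the other clock genes were counted. Of 19 tested, 1 was called, or 5.26%, near the 6.68% of all tested genes. It was BHLHE41, which encodes the repressor DEC2 and rose from between 11.36 and 11.91 to between 12.78 and 13.47 (log2 fold change 1.48 ± 0.14 SE, adjusted p = 0.000186 from limma). BHLHE40, the gene of the related repressor DEC1, had a log2 fold change of -0.58 (adjusted p = 0.147 from limma). TEF, the gene of a clock output factor, had a log2 fold change of -0.56 (adjusted p = 0.0286 from limma), below the minimum. NR1D2, the gene of the repressor REV-ERBβ, had a log2 fold change of -0.03. The list's median was -0.39. In 7 of the 19 genes all 5 donors were lower and in 3 all were higher, where 32.7% of all tested genes had the same direction in all donors. PER3, a clock gene named after its values were seen, was among the lower ones (log2 fold change -0.92, adjusted p = 0.0205 from limma) and was called with array weights, without the IL-1β library of donor 3 or of donor 4, and without both libraries of donor 3, where its log2 fold change was -1.07 to -1.04. PER2, which is in this list and in that of the targets, was lower in 5 of 5 donors with a log2 fold change of -0.41 that did not pass (adjusted p = 0.222 from limma).

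NR4A1, NR4A2 and NR4A3 encode the orphan nuclear receptors NUR77, NURR1 and NOR1, transcription factors that are made within minutes of a stimulus and oppose or cooperate with the glucocorticoid receptor at shared genes. Donor 4 had the lowest value of all 3 genes in both groups. Of the squared deviations from the group means, 93.2% lay between donors for NR4A1, 67.2% for NR4A2 and 89.3% for NR4A3. For HSD11B1 the share was 27.4%. A large part of such deviations falls between donors even where donors do not differ. No share over all tested genes is given, so these shares are descriptions.

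NR4A1 was at 10.41, 10.68, 9.50, 8.05 and 9.59 in donors 1 to 5 with inhibitor alone and at 9.80, 11.01, 9.58, 8.76 and 9.83 with IL-1β plus inhibitor. The groups overlapped almost completely. Its log2 fold change was 0.15 (95% confidence interval -0.95 to 1.25, adjusted p = 0.878 from limma), with 4 donors higher and 1 lower. This interval, from the fit without the donor, includes changes as large as the minimum fold change in the upward direction. With the donor block the interval was -0.25 to 0.56 (adjusted p = 0.578 from limma), within the minimum fold change in both directions.

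NR4A2 was at 11.46, 11.52, 11.05, 7.83 and 9.79 with inhibitor alone and at 12.25, 12.43, 11.68, 11.58 and 11.70 with IL-1β plus inhibitor. The lowest library with IL-1β, at 11.58, was just above the highest without it, at 11.52. The SD was 1.56 (n = 5) in the first group and 0.38 (n = 5) in the second. Within donors the log2 difference was 0.63 to 0.91 in donors 1 to 3, 1.91 in donor 5 and 3.75 in donor 4. The log2 fold change of 1.60 did not pass without the donor block (95% confidence interval 0.25 to 2.95, adjusted p = 0.105 from limma) and passed with it (0.61 to 2.59, adjusted p = 0.0324). Without the library of donor 4 with inhibitor alone the log2 fold change was 0.97 (adjusted p = 0.0974), and without both libraries of donor 4 it was 1.06 (adjusted p = 0.0863, or 0.0135 with the donor block, from limma). With the block and a donor left out, NR4A2 was called in 2 of 5 fits, those without donor 3 or donor 4.

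NR4A3 was at 9.05, 8.99, 7.58, 7.33 and 8.86 with inhibitor alone and at 10.01, 9.73, 9.37, 8.99 and 10.21 with IL-1β plus inhibitor. The highest value of the first group, 9.05, was above the lowest of the second, 8.99, and each of the 5 donors was higher with IL-1β, by 0.73 in donor 2 to 1.79 in donor 3. The mean was 8.36 ± 0.84 (SD, n = 5) in the first group and 9.66 ± 0.49 (SD, n = 5) with IL-1β. This is 1.30 ± 0.38 (SE) as a log2 fold change (adjusted p = 0.0395 from limma). With the donor block the adjusted p was 0.00231, and the gene was called in 5 of 5 blocked fits that left out a donor. Without the block the call was lost in 9 of 15 fits from which a library or both libraries of a donor were dropped, with adjusted p-values up to 0.105. These were the fits without donor 3 or 4 with inhibitor alone, without donor 1, 2 or 5 with IL-1β plus inhibitor, or without both libraries of donor 1, 2, 3 or 5. Its log2 fold change stayed between 1.04 and 1.47.

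NR4A genes are textbook targets of cyclic AMP and belong to the immediate early genes. Beside them 22 genes of these kinds, or linked to them, were tested. Of these, 5 were higher and 1 was lower with IL-1β plus inhibitor, or 27.3% against 6.68% of all tested genes. The list's median log2 fold change was 0.33. This list too was written with earlier results of these data known and mixes genes of several kinds, so its share is a description. The early genes FOS, FOSB, EGR1, EGR2, EGR3, JUNB, IER2 and ATF3 were not called, with or without the donor block. Their log2 fold changes ran from -0.86 for EGR2 to 0.97 for FOSB. They were listed together after their values were seen. IER3, an early gene of survival signalling, rose from between 11.03 and 11.92 to between 14.46 and 16.38 (log2 fold change 4.06, adjusted p = 0.000116 from limma). SIK1, a kinase gene induced by cyclic AMP, had a log2 fold change of 2.78, and PTGER4, which encodes a prostaglandin E2 receptor that raises cyclic AMP, of 1.81. The phosphodiesterase genes PDE4D and PDE4B, whose enzymes break cyclic AMP down, went from means of 11.09 and 10.19 to 12.89 and 11.81. Without the donor block the call of PDE4B was lost in 6 of 15 fits with libraries left out (adjusted p up to 0.0831 from limma). These lacked the IL-1β library of donor 2 or 5, or both libraries of donor 1, 2, 3 or 5. With the block PDE4B was called (adjusted p = 0.0176 from limma), also in 5 of 5 blocked fits that left out a donor. CREB3L1, the gene of a transcription factor of the secretory pathway, fell by 1.47. For SIK1, PTGER4, PDE4D, PDE4B and CREB3L1 the adjusted p was between 0.00120 and 0.0263 from limma, and each gene moved the same way in all 5 donors.

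PDE4B had its lowest value with inhibitor alone in donor 4, at 8.26 against 10.53 to 10.84 in the other donors. This is the library in which NR4A1, NR4A2 and NR4A3 were lowest. Other highly expressed genes of the list gave no call, among them JUNB (log2 fold change 0.03, adjusted p = 0.912), RCAN1 (-0.25, adjusted p = 0.657) and RXRA (-0.24, adjusted p = 0.195 from limma), the last of which encodes a dimer partner of NUR77 and NURR1.

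**Figure D4:**
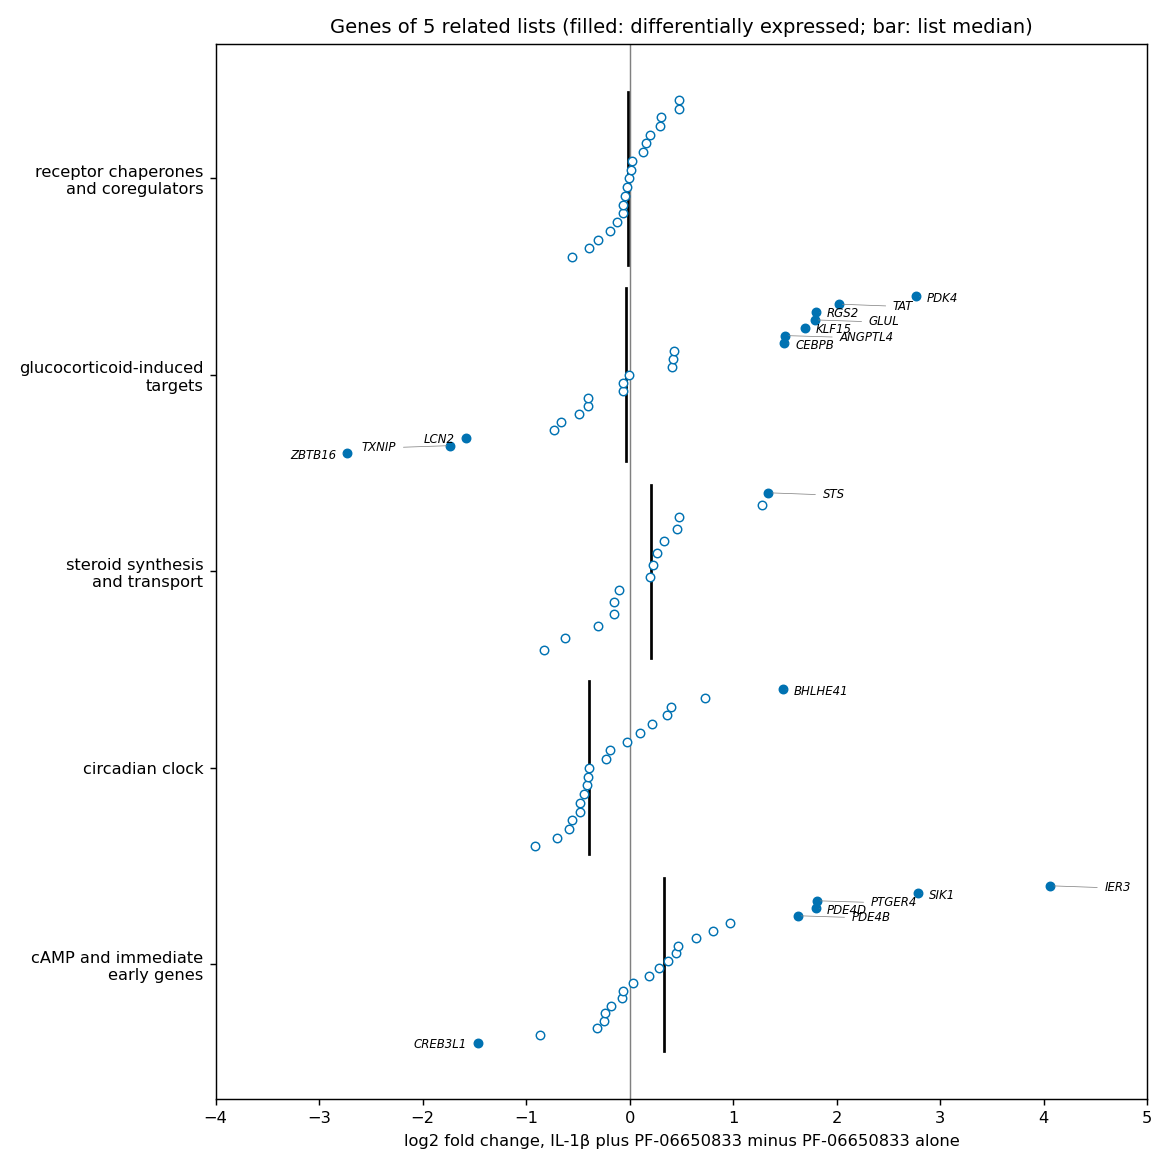
Log2 fold change, IL-1β plus inhibitor minus inhibitor alone, of the genes reported here in 5 lists of tested genes related to glucocorticoid action, the clock and the NR4A receptors. Each circle is a gene, filled and named where it was called, and the black bar is the median of the whole list. The chaperones and coregulators hold no filled circle, and the glucocorticoid-induced targets hold 7 on the right and 3 on the left.

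The genes whose profile over the 10 libraries lay nearest to each of the 3 called genes were found by the root-mean-square difference of log2 values after each gene's own mean was subtracted. Nearest to HSD11B1 were PITRM1 (0.40 log2 units), EPHA6 (0.46) and NFKBIZ (0.48), where HSD11B1 itself varied by 1.41 about its mean. NFKBIZ encodes an NF-κB cofactor and had a log2 fold change of 2.92. Nearest to TSC22D3 were LRRC1 (0.14), CDK14 (0.15) and SAV1 (0.15), which had log2 fold changes of -1.04, -1.14 and -0.92. Nearest to NR4A3 were SYBU (0.23), GRAMD1B (0.32) and TMEM86A (0.35). These libraries share group and donor, so nearness describes a profile and carries no test.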

How the data were processed

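Equine tenocytes in 3D collagen gels were sequenced from mRNA libraries. Per the submitters' processing notes and the methods of the study, FastQC (version 0.11.9) was used for quality control, reads were assigned to the EquCab3.0 transcripts with Salmon (version 1.8), and the authors tested with DESeq2 (version 1.36). The deposited values are log2 values, normalized between libraries by the authors. The transformation is not named in the sources used here. It was read as variance-stabilizing from a lowest value shared by all 10 libraries, which a log2 scale with an added constant would also show. Counts recovered from it, and ratios of them, rest on that reading and are approximate. Depth per library was not taken from it.

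A gene was tested if 5 or more libraries exceeded that lowest value. The model was limma's (version 3.58.1, in R 4.3.3) with its trend of variance on mean and no donor term, the study naming none. Adjusted p-values are Benjamini-Hochberg values over all 17992 tested genes. The titles tie the libraries to donors. Libraries of the same donor deviated together (r across genes 0.37 to 0.51 over 5 pairs, against a mean of -0.11 between donors), so fits with a donor block are given beside results whose call they change. The fit was tested on simulated data with independent libraries and no donor effect, so its behaviour with shared donors was not tested.

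Members and gene lists were chosen with earlier results of these data known. The genes named are the members, up to 6 called and 3 best expressed other genes of each list, and the 3 nearest profiles of each called member, apart from those described as chosen later. Some genes of the lists are counted but not reported here. Sequences were not used here, and 8 listed symbols were not in the table. Settings varied were the fold change minimum, filters, scale, normalization, variance model, block and samples, and blocked fits without each donor were added after the data were seen. No column was left unassigned (0).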

Additional observations from a re-analysis of the deposited data

Results flagged for a closer look

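In 9 of 88 groups of 5 libraries, taken over the 10 members and 34 named genes of the lists, 1 library lay far from the other 4, where chance gives about 4.4. Of the 20 groups of the members themselves 2 were such. With IL-1β plus inhibitor, donor 3 had TSC22D3 at 9.46, against 8.81 to 8.95 in the other donors. PER1 in donor 2 with inhibitor alone was at 9.49, against 8.71 to 8.89.

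Among the related genes, CEBPB in donor 3 was the highest with inhibitor alone, at 13.26 against 12.67 to 12.82, and the lowest with IL-1β plus inhibitor, at 13.92 against 14.39 to 14.48. Donor 4 with inhibitor alone had LCN2 at 9.48 (others 8.28 to 8.59), HSD17B4, a gene of peroxisomal fatty acid oxidation, at 11.72 (others 12.09 to 12.18) and PDE4B at 8.26 (others 10.53 to 10.84). With inhibitor alone, PTGER4 in donor 1 stood at 8.52 (others 8.03 to 8.14). With IL-1β plus inhibitor, SIK1 in donor 5 stood at 10.04 (others 11.27 to 11.64). No cause was tested for any of them.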

How the results depend on the processing

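HSD11B1 and TSC22D3 were called in all 31 alternative fits, with log2 fold changes of 2.36 to 3.07 and -1.28 to -1.11, and 2 to 4 members were called. Of the 5 lists together, 14 to 22 genes were called without single libraries or donors and 35 with the donor block and no minimum fold change, against 19. Over all genes 1202 were called, 2782 without the minimum fold change, 3996 with the block as well, and 762 to 1677 when libraries or donors were left out (762 to 1422 without the block), where the unblocked fits without donor 1, 2 or 5 gave 762, 790 and 777. Pairing by the donor block gave 1486 and among the members changed only the call of NR4A2. NR4A3 lost its call without the mean-variance trend (adjusted p = 0.0501). Among uncalled genes near 0 some changed sign. Quantile normalization gave -0.017 for HSD11B2 and -0.018 for JUNB, median centring 0.027 for CEBPD and 0.0035 for NR1D2, and array weights -0.073 for NR3C2 and 0.022 for RCAN1. When libraries or donors were left out, log2 fold changes spanned -0.21 to 0.17 for HSD11B2, -0.15 to 0.068 for NR3C1, -0.10 to 0.25 for NR3C2, -0.25 to 0.41 for NR4A1, -0.12 to 0.082 for CEBPD, -0.17 to 0.11 for NR1D2, -0.47 to 0.0067 for RCAN1 and -0.026 to 0.12 for JUNB. Causes were not tested. Depth limits HSD11B2, with at most 12.2 normalized counts in a library.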

Other observations

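Donor 3 showed the smallest changes in several of these genes. Between its 2 libraries TSC22D3 differed by -0.67, CEBPB by 0.67, ZBTB16 by -0.55, TXNIP by -0.79 and RGS2 by 0.57 on the log2 scale, the smallest absolute difference of the 5 donors for each gene. Over all 17992 tested genes the median absolute log2 difference was 0.254 in donor 3 and 0.332 to 0.413 in the other 4 donors. NR4A3 did not follow this order, since its difference was largest in donor 3, at 1.79. HSD11B1, GLUL and NR4A2 had their largest differences in donor 4, at 4.02, 3.38 and 3.75. These genes were picked out after their values were seen, and with 1 library per donor and group no donor's difference can be tested.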
